A study of Mus musculus with 4 samples.

Results

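The interleukin genes and interleukin receptor genes were examined in primary mammary tumors of female mice. Their rows were found by name, as every symbol that begins with Il followed by a number, which gave 87 of 23746 gene rows under 85 symbols. By role, 39 rows encoded ligands, 41 receptor chains, 6 soluble or decoy inhibitors and 1 another protein, the enzyme Il4i1. Il11ra2 had 3 rows, and the interferon lambda genes Ifnl2, Ifnl3 and Ifnlr1 stood under their older symbols Il28a, Il28b and Il28ra.

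PolyA RNA of 4 tumors had been sequenced. Tumors 26043 and 26044 came from WapCre;Rank;Brca1;p53 triple-mutant females, and tumors 26048 and 26050 from WapCre;Brca1;p53 double-mutant females, so the groups shared the Cre transgene and the floxed Brca1 and p53 alleles and differed in Rank, the receptor of RANKL. The transgene is active in luminal and basal mammary epithelium, and Rank in stromal and immune cells is not its target, though recombination in those cells was not measured here. The labels give no age, grade or litter for the sequenced tumors, and each value covers a whole tumor, in which fewer cells of a type and less RNA per cell cannot be told apart.

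Interleukins are secreted signals through which immune, stromal and epithelial cells instruct each other, and most act on receptors built from a private chain and a chain shared within a family. IL-1 family ligands signal through the adaptor Myd88 to NF-kB, the transcription factor that RANK also engages, while ligands of the gp130, common gamma chain, IL-10 and IL-12 families signal through Jak kinases and Stat proteins. In the mammary gland and its tumors the ligands are known from infiltrating leukocytes as well as from epithelium, so the receptor chains matter as much as the ligands for who can respond.

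The promoters of Il17rc, Il33 and Il3ra are shown because these genes had no overlap between genotypes and a fitted mean difference of at least 1 log2 unit toward the triple-mutant tumors, in the fit described below. The windows are RefSeq sequence of GRCm38.p6, run from 250 bases before to 50 bases after the annotated start on the plus strand, and are 300 bases long. Capitals mark matches to GGGNNTTTC, an NF-kB-like motif, on either strand. The Il17rc window is chr6:113471205-113471504, the Il33 windows are chr19:29924863-29925162 and chr19:29945540-29945839, of which the latter begins inside the gene at an alternative start, and the Il3ra window is chr14:14346245-14346544.
Il17rc: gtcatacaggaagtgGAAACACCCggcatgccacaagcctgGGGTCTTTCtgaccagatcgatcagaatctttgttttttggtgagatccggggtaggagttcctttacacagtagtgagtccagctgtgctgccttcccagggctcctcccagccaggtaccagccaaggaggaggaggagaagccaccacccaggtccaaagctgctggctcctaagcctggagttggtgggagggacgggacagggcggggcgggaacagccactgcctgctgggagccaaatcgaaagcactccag
Il33, upstream start: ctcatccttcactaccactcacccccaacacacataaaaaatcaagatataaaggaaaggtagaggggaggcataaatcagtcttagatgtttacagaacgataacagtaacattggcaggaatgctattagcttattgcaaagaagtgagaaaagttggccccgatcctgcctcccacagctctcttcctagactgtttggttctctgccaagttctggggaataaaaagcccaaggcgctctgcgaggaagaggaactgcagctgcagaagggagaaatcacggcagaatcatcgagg
Il33, inner start: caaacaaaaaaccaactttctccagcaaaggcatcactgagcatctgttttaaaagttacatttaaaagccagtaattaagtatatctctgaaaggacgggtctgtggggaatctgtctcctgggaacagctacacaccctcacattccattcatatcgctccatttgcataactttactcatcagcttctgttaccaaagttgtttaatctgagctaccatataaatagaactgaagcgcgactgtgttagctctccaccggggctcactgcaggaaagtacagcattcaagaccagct
Il3ra: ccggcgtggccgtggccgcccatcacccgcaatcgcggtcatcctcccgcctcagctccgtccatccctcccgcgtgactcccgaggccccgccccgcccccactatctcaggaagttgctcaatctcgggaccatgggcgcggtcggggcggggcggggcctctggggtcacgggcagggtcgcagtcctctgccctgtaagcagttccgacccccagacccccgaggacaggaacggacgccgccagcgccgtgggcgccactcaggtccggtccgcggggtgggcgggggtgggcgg

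The Il17rc window held 2 NF-kB-like matches, which begin at bases 16 and 42 of the window, and the Il33 and Il3ra windows held none of the motifs searched. Of 32851 RefSeq windows of this length, 4.36% held GGGNNTTTC, against 11 of 83 windows of the interleukin genes (13.3%). The 11 are not separate genes, since Il1rn and Il4 each count with 2 windows, and those of Il1rn overlap. A STAT-like motif, TTCNNNGAA, was in 8.30% of all windows and 10 of the 83, and an AP-1-like motif, TGANTCA, in 7.81% and 14 of the 83, both strands searched. The motifs share few letters and were counted separately. Among the genes with an NF-kB-like match were Il1rn, Il18, Il16, Il4ra, Il6 and Il4. Windows were found for 68 of the symbols, not including Il23a, several of them with more than 1 start, and a match describes letters only.

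Most of these genes were at low levels, and the receptors were at higher levels than the ligands. The level was given as FPKM, fragments per kilobase of transcript scaled to the mapped fragments of the library, which can be compared between genes because it is set per length. The authors estimated it with Cufflinks, and since total reads cannot be recovered from these values the depth of each tumor is unknown. At least 1 FPKM in at least 2 tumors was reached by 34 rows (39.1%), against 53.7% of all gene rows, and by 21 of 41 receptor rows against 11 of 39 ligand rows and 2 of 6 inhibitor rows. The median of the highest level in any tumor was 2.96 FPKM over the receptor rows and 0.124 FPKM over the ligand rows. Of the 53 rows that did not reach the filter, 11 were listed at 0 in every tumor, 38 were above 0 but under 1 FPKM in every tumor, and 4 were at 1 FPKM or more in a single tumor. Those 4 were Il17rb (2.97 FPKM in 26043), a receptor chain for IL-17B and IL-25, Il17rd (4.44 FPKM in 26044), a member of the IL-17 receptor family that also restrains fibroblast growth factor signaling, Il7 (1.42 FPKM in 26043), a growth factor for lymphocytes, and Il1r2 (1.07 FPKM in 26050), a decoy receptor for IL-1.

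The classical T cell cytokines were among the rows near 0. Il4, Il13 and Il5, neighbours on chromosome 11 between positions 53612461 and 53725103 of GRCm38 and signals of type 2 immunity, did not exceed 0.0764 FPKM in any tumor. Il17a and Il17f reached at most 0.0350 FPKM, and Il2 and Il21 at most 0.00835 FPKM. Il24, Il20, Il19 and Il10, neighbours on chromosome 1, stayed at or under 0.464 FPKM. Of 10 T cell markers, 6 were under 1 FPKM in all 4 tumors, the CD3 genes Cd3d, Cd3e and Cd3g among them. The 3 that reached the filter were Cd4, Lck and Thy1. Cd4 was at 1.68 and 2.20 FPKM in the triple-mutant and 1.003 and 0.515 FPKM in the double-mutant tumors, so it was higher in both triple-mutant tumors. Lck and Thy1 overlapped between genotypes, with Lck at 3.11 to 6.65 FPKM over the 4 tumors. Cd5 was at 0.150 to 3.66 FPKM and Thy1 at 15.6 to 47.2 FPKM.

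**Figure D1:**
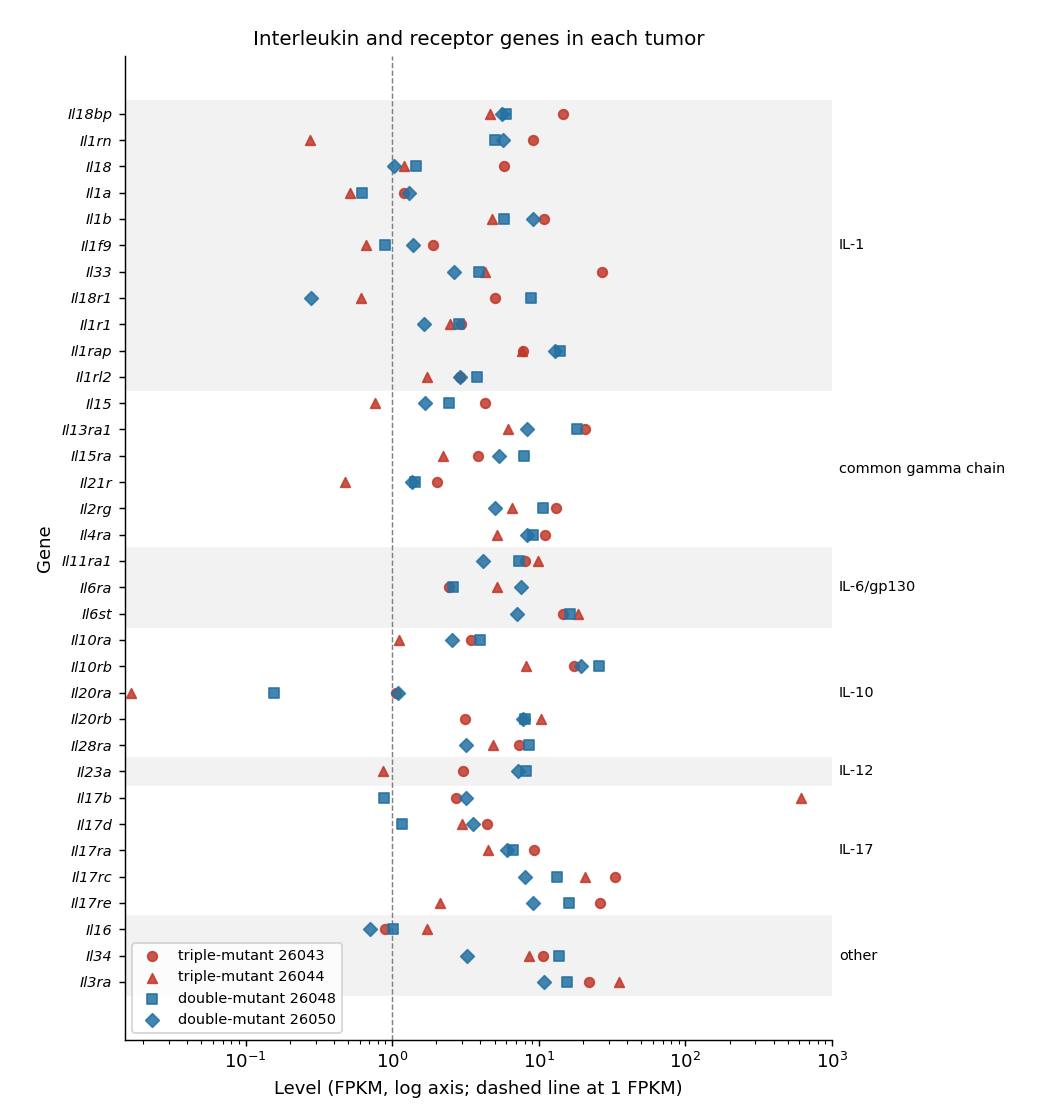
Level in FPKM (log axis) of the 34 interleukin and receptor genes that reached 1 FPKM in at least 2 tumors, with a point for each tumor and the families shaded. Il17b in triple-mutant tumor 26044 stands at 610 FPKM, far right of every other point, and the points of the genotypes interleave for 25 of the 34 genes.

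Between genotypes, no interleukin gene passed the test. Log2(FPKM + 1) was fitted with limma over all 12752 rows that reached the filter, and differences below are triple-mutant minus double-mutant on that scale, which understates the change of genes at low levels. With Benjamini-Hochberg adjustment at 0.05, 0 of the 34 genes were called, as were 0 of all rows (0%). The lowest adjusted p was 0.470 among the interleukin genes and 0.0644 among all rows. At an unadjusted p under 0.05 stood 3 of the 34 (8.82%), close to the 9.82% of all rows. An exact permutation test of 2 tumors against 2 cannot give a two-sided p under 0.333.

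The differences lay on both sides of 0, with 17 positive and 17 negative and a median of 0.00, beside -0.02 over all rows. The median absolute difference was 0.41 for these genes and 0.38 over all rows. For 4 genes the lower triple-mutant tumor exceeded the higher double-mutant tumor (11.8%, against 21.3% of all rows), namely Il17rc, Il33, Il3ra and Il11ra1. The reverse held for 5 genes (14.7%, against 22.9% of all rows), Il23a, Il1rap, Il15ra, Il10rb and Il1rl2. With a difference of at least 1 log2 unit required as well, 3 genes were higher in the triple-mutant tumors (8.82%, against 7.3% of all rows) and 1 in the double-mutant tumors (2.94%, against 4.65%). None of these shares was far above that of all rows, and the order of the tumors for these 9 genes is therefore a description.

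**Figure D2:**
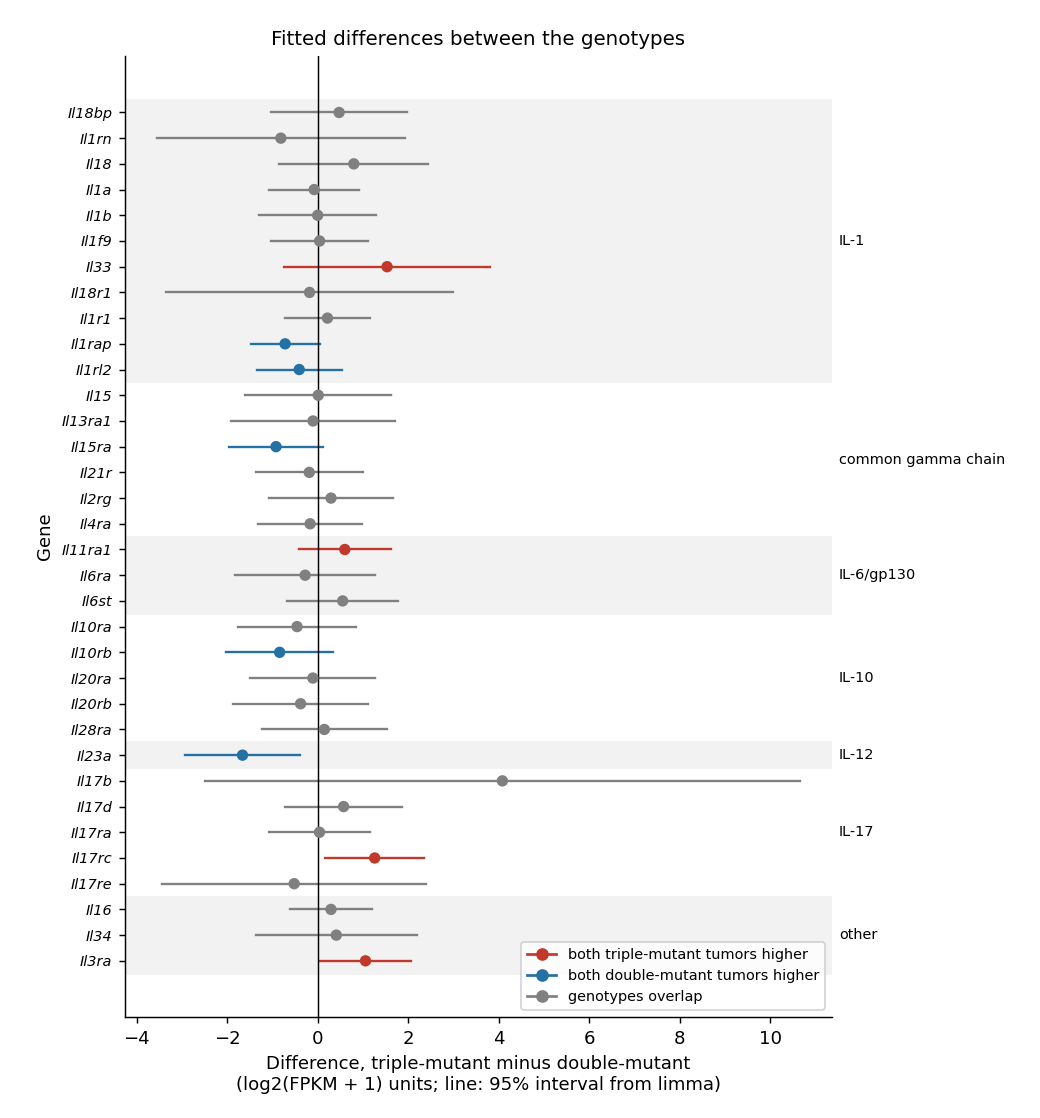
Fitted difference between genotypes (triple-mutant minus double-mutant, log2(FPKM + 1) units) for each of the 34 genes, with the 95% interval from limma as a line. The intervals of Il23a, Il17rc and Il3ra exclude 0 before adjustment, and the interval of Il17b, from -2.49 to 10.66, is the widest.

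Among the ligands, Il23a was lower in both triple-mutant tumors. Il23a encodes the private subunit of IL-23, which pairs with Il12b and sustains IL-17-producing lymphocytes, and lies at positions 128296140 to 128298084 of chromosome 10. Its level was 3.06 FPKM in tumor 26043, 0.868 FPKM in 26044, 8.23 FPKM in 26048 and 7.26 FPKM in 26050. The double-mutant tumors were close to each other and the triple-mutant tumors were 3.53-fold apart, and the genotypes did not overlap. The means were 1.97 ± 1.55 FPKM against 7.74 ± 0.686 FPKM (SD, n = 2 each), and the fitted difference was -1.66 (SE 0.48, 95% interval -2.93 to -0.40, limma adjusted p = 0.470). It was -1.10 without tumor 26044 and -2.22 without tumor 26043. Its partner Il12b did not exceed 0.0797 FPKM, and the receptor chains Il23r and Il12rb1 were at most 0.0207 and 0.443 FPKM, so neither the partner subunit nor the receptor reached 1 FPKM in any tumor. The other ligands of the family, Il12a and Il27, were at most 0.170 FPKM, and of its receptors the highest was Il27ra, the IL-27 receptor, at 0.259 and 0.103 FPKM in the triple-mutant and 0.481 and 0.360 FPKM in the double-mutant tumors.

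Il33 was high in a single tumor. IL-33 is a nuclear cytokine released on cell damage, and its gene lies at positions 29925114 to 29960715 of chromosome 19. The level was 27.0 FPKM in 26043, 4.31 FPKM in 26044, 3.89 FPKM in 26048 and 2.63 FPKM in 26050. Tumor 26043 was 6.26-fold above the next tumor, and the remaining triple-mutant tumor lay just above the double-mutant tumors. The fitted difference was 1.53 (SE 0.86, 95% interval -0.74 to 3.81, limma adjusted p = 0.601), and it was 0.33 without tumor 26043 and 2.73 without tumor 26044. The genotypes overlapped when the levels were rescaled to TPM, which sums to the same total in each tumor. Il1rl1, the IL-33 receptor, was at most 0.138 FPKM in any tumor.

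Il17b had the largest difference and the widest spread of the 34 genes. IL-17B is a member of the IL-17 family that signals through Il17rb. Its level was 2.70 FPKM in 26043, 610 FPKM in 26044, 0.884 FPKM in 26048 and 3.19 FPKM in 26050. Tumor 26044 was 191-fold above the next tumor, which was a double-mutant tumor, and Il17b ranked 180 of 23746 rows there by FPKM, while the other triple-mutant tumor lay between the double-mutant tumors. The difference of 4.08 (SE 2.48, 95% interval -2.49 to 10.66, limma adjusted p = 0.625) rested on that tumor, and was 0.40 without it and 7.77 without 26043. The FPKM of 610 lay outside Cufflinks' own confidence interval of 253 to 273 FPKM for that tumor, and the lower of these bounds is still far above the other tumors. Among its neighbours in the genome, Pcyox1l was at 17.3, 33.5, 15.4 and 20.0 FPKM, Afap1l1 at 4.99, 22.6, 7.70 and 16.3 FPKM and E330013P06 at 1.71, 25.9, 1.40 and 0.635 FPKM in tumors 26043, 26044, 26048 and 26050, so each was also highest in 26044. The same held for LOC545261, at 23.9 FPKM in 26044, and 1500015A07Rik, at 3.33 FPKM there. Of all rows tested, 24.2% were highest in 26044. Grpel2, another neighbour, was at 7.76, 6.02, 7.58 and 6.43 FPKM and lowest there, and these neighbours were chosen after the level of Il17b was seen. Il17rb was at 0.441 FPKM in the tumor with 610 FPKM of Il17b.

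The other ligands that reached the filter overlapped between the genotypes. Il1b, the secreted form of IL-1 made mostly by myeloid cells, was at 10.8 and 4.80 FPKM in the triple-mutant and 5.75 and 9.17 FPKM in the double-mutant tumors, a difference of 0.00. Il18, activated by caspase-1 like IL-1 beta, was at 5.83 and 1.20 FPKM against 1.45 and 1.02 FPKM (0.80, SE 0.62, 95% interval -0.85 to 2.45), with tumor 26043 4.01-fold above the next. Il34, an alternative ligand of the macrophage receptor Csf1r, was at 10.7 and 8.52 FPKM against 13.8 and 3.25 FPKM (0.41, SE 0.67, 95% interval -1.37 to 2.19). In none of these ligands did the genotypes separate, and the highest tumor was 26043 for Il1b and Il18 and 26048 for Il34.

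Il15, which maintains natural killer cells and memory T cells, was at 4.27 and 0.764 FPKM against 2.42 and 1.67 FPKM (0.01, SE 0.61). Il17d, a less studied member of the IL-17 family, was at 4.44 and 3.01 FPKM against 1.16 and 3.57 FPKM (0.57, SE 0.49). Its FPKM lay above Cufflinks' own interval in every tumor, at 1.84 to 2.25 times the midpoint, and the difference was 0.35 with the midpoints, 0.03 without 26048 and 1.11 without 26050. Il1a, Il1f9 (IL-36 gamma) and Il16, a chemoattractant for CD4+ cells, lay between 0.515 and 1.89 FPKM, and their differences between -0.08 and 0.29. Il6, the founding ligand of the gp130 family, was at or under 0.234 FPKM, and Il11, another ligand of that family and the highest of its 3 ligand rows by mean, was at 0.451 and 0.358 FPKM against 0.359 and 0.368 FPKM. The highest ligand of the IL-10 family was Il24, at 0 and 0.0495 FPKM against 0.347 and 0.464 FPKM, which is under the filter.

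**Figure D3:**
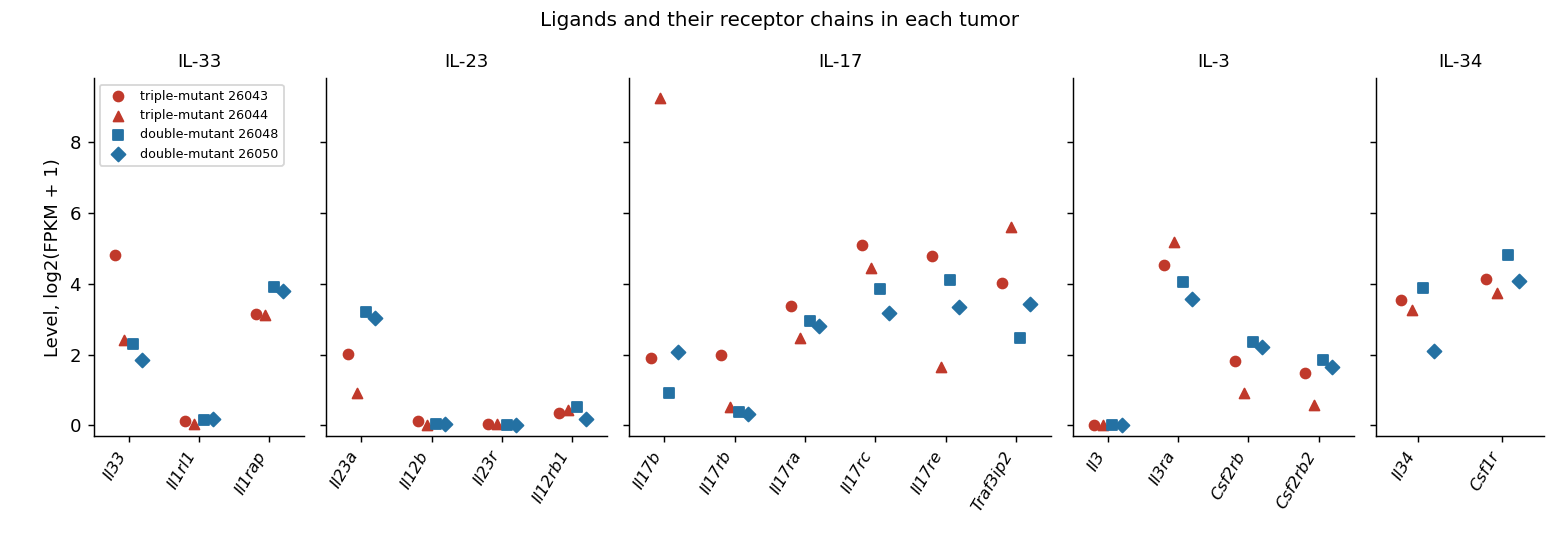
Levels in each tumor, as log2(FPKM + 1), of 5 ligands or ligand groups beside their receptor chains and, for IL-17, the adaptor Traf3ip2. Il1rl1, Il12b, Il23r and Il3 lie near 0 in all 4 tumors, beside Il33, Il23a and Il3ra, which do not.

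Of the receptor chains, Il17rc was higher in both triple-mutant tumors. Il17rc pairs with Il17ra to bind IL-17A and IL-17F and lies at positions 113471455 to 113483163 of chromosome 6, next to Il17re, the receptor chain for IL-17C. Its level was 33.2 FPKM in 26043, 20.7 FPKM in 26044, 13.4 FPKM in 26048 and 8.02 FPKM in 26050, so the genotypes did not overlap and each pair was spread to a like degree. The means were 27.0 ± 8.83 FPKM and 10.7 ± 3.81 FPKM (SD, n = 2 each), and the fitted difference was 1.26 (SE 0.41, 95% interval 0.17 to 2.35, limma adjusted p = 0.484). Over the alternatives of processing and the leaving out of each tumor it lay between 0.92 and 1.60. Its promoter window, printed above, holds 2 NF-kB-like matches, and the windows of Il33 and Il3ra hold none. A link between such matches and the levels was not tested.

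Its neighbour Il17re did not share the pattern, at 26.4, 2.11, 16.2 and 9.20 FPKM in 26043, 26044, 26048 and 26050 (-0.52, SE 1.11). Il17ra, the chain common to the family, was at 9.34 and 4.52 FPKM against 6.71 and 6.03 FPKM (0.04, SE 0.42). Of the IL-17 receptor rows that reached the filter, Il17rc alone thus had separate genotypes, and the ligands of its receptor, Il17a and Il17f, were near 0. The adaptor Traf3ip2, which links the IL-17 receptors to NF-kB signaling, was at 15.3 and 47.1 FPKM against 4.57 and 9.83 FPKM (1.85, SE 0.67, limma adjusted p = 0.503).

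Il3ra, the alpha chain of the IL-3 receptor, was also higher in both triple-mutant tumors. It lies at positions 14346495 to 14355490 of chromosome 14, and its level was 22.1 FPKM in 26043, 35.4 FPKM in 26044, 15.5 FPKM in 26048 and 10.8 FPKM in 26050. The genotypes did not overlap, with means of 28.8 ± 9.41 FPKM and 13.1 ± 3.30 FPKM (SD, n = 2 each) and a difference of 1.06 (SE 0.38, 95% interval 0.05 to 2.06, limma adjusted p = 0.503). In every tumor the FPKM lay above Cufflinks' own interval for this gene, by 2.08 to 2.69 times its midpoint, and the difference was 0.75 with the midpoints in place of the FPKM. The signaling partners Csf2rb and Csf2rb2, the beta chains, stood the other way, higher in both double-mutant tumors. Csf2rb was at 2.55 and 0.885 FPKM against 4.07 and 3.61 FPKM (-0.90, SE 0.43), and Csf2rb2 at 1.79 and 0.501 FPKM against 2.61 and 2.16 FPKM (-0.72, SE 0.42). Il3 itself was listed at 0 in all 4 tumors.

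Il11ra1, the IL-11 receptor, was the remaining gene with both triple-mutant tumors on top, at 8.01 and 9.94 FPKM against 7.32 and 4.17 FPKM (0.60, SE 0.38). The gap between 8.01 and 7.32 FPKM is small, and the FPKM lay above Cufflinks' own interval in every tumor, at 1.19 to 1.40 times the midpoint. Il11ra1 also has near-identical copies named Il11ra2, all 3 listed at 0, so that the split of reads among the copies is uncertain. Il6st, which encodes gp130 itself, was at 14.5 and 18.4 FPKM against 16.3 and 7.16 FPKM (0.55, SE 0.47), below Cufflinks' own interval in every tumor at 0.856 to 0.920 of the midpoint. Its difference was 0.01 without 26050 and 1.09 without 26048. Il6ra, the IL-6 binding chain, was at 2.42 and 5.18 FPKM against 2.61 and 7.61 FPKM (-0.28, SE 0.58). Both overlapped between genotypes, and each was spread more within the double-mutant pair.

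Il1rap, the chain shared by the receptors for IL-1, IL-33 and IL-36, had tumors of a pair close to each other in both genotypes. Its level was 7.82 FPKM in 26043, 7.68 FPKM in 26044, 14.02 FPKM in 26048 and 12.9 FPKM in 26050, and the difference was -0.72 (SE 0.29, 95% interval -1.48 to 0.04, limma adjusted p = 0.520). The tumors of a pair differed by 0.02 log2 units in the triple-mutant and 0.12 in the double-mutant genotype, and the alternatives moved the difference only between -0.78 and -0.66. The SE depends in part on the variance of other rows, toward which limma moves that of each gene, and was 0.14 without a filter. Il1rl2, the IL-36 receptor, was at 2.90 and 1.73 FPKM against 3.80 and 2.92 FPKM (-0.41, SE 0.36), so that 26043 lay just under 26050. Il1r1, the signaling IL-1 receptor, overlapped at 2.96 and 2.50 FPKM against 2.87 and 1.65 FPKM (0.21, SE 0.35).

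Il18r1, the binding chain of the IL-18 receptor, was at 5.03 and 0.614 FPKM in the triple-mutant and 8.79 and 0.280 FPKM in the double-mutant tumors (-0.18, SE 1.19), high in 1 tumor of each genotype. Its accessory chain Il18rap was at most 0.893 FPKM in any tumor. Il1r1, Il1rl2 and Il18r1 lie in a cluster of 6 IL-1 receptor family genes on chromosome 1 (positions 40084768 to 40549297), of which 3 reached the filter with differences from -0.41 to 0.21.

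The chains Il15ra and Il10rb were lower in both triple-mutant tumors. Il15ra, which presents IL-15 to neighbouring cells, was at 3.87 and 2.21 FPKM against 7.87 and 5.33 FPKM (-0.92, SE 0.39, 95% interval -1.96 to 0.12). Il10rb, the chain shared by the receptors for IL-10, IL-22 and the lambda interferons, was at 17.3 and 8.22 FPKM against 25.6 and 19.4 FPKM (-0.84, SE 0.44, 95% interval -2.02 to 0.33, limma adjusted p = 0.586), and its difference was -0.35 without 26044 and -1.34 without 26043. For both genes 26043 was nearer to the double-mutant tumors than 26044 was. Il10ra, the private IL-10 chain, was at 3.45 and 1.12 FPKM against 4.001 and 2.56 FPKM (-0.46, SE 0.49), with overlap.

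The remaining receptor chains that reached the filter overlapped. Il13ra1, which pairs with Il4ra in the type II IL-4 receptor, was at 20.6 and 6.17 FPKM against 18.2 and 8.32 FPKM (-0.10, SE 0.69), in every tumor below Cufflinks' own interval, at 0.628 to 0.764 of the midpoint. Il4ra was at 11.0005 and 5.17 FPKM against 9.09 and 8.27 FPKM (-0.17, SE 0.43), and Il2rg, the common gamma chain, at 13.1 and 6.53 FPKM against 10.6 and 5.05 FPKM (0.29, SE 0.52). The subunits of the type II receptor were thus measured at several FPKM in every tumor, while their ligands Il4 and Il13 were near 0. Il21r, Il20ra, Il20rb and Il28ra had differences of -0.19, -0.11, -0.38 and 0.15, with levels from 0.0166 FPKM for Il20ra in 26044 to 10.3 FPKM for Il20rb in the same tumor.

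Among the inhibitors, Il18bp and Il1rn reached the filter. Il18bp, which traps IL-18, was at 14.6 and 4.65 FPKM against 5.93 and 5.62 FPKM (0.47, SE 0.57). Il1rn, the IL-1 receptor antagonist, was at 9.13 FPKM in 26043, 0.275 FPKM in 26044, 5.002 FPKM in 26048 and 5.67 FPKM in 26050 (-0.82, SE 1.04, 95% interval -3.55 to 1.92, limma adjusted p = 0.809). The triple-mutant tumors thus held both the highest and the lowest level of each inhibitor, and Il1rn in 26044 was 18.2-fold under the next tumor. Il22ra2, the soluble IL-22 decoy, and Il13ra2, the IL-13 decoy, were at most 0.0775 and 0.0845 FPKM. Il4i1 did not exceed 1.15e-22 FPKM, which is 0 in practice.

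The triple-mutant tumors differed from each other more than the double-mutant tumors did. The median absolute difference within the pair was 0.93 log2 units for the triple-mutant and 0.49 for the double-mutant tumors over the 34 genes, against 0.45 and 0.36 over all rows, and the triple-mutant pair was the wider for 23 of the 34 genes (67.6%, against 58.4% of all rows). Tumor 26044 was the lowest of the 4 for 18 of the 34 genes (52.9%, against 38.9% of all rows), Il1b, Il1rn, Il4ra, Il10ra and Il21r among them, and 26043 was the highest for 16 (47.1%, against 27.9%). The level in 26043 was 12.5-fold that in 26044 for Il17re, 33.2-fold for Il1rn and 6.26-fold for Il33.

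**Figure D4:**
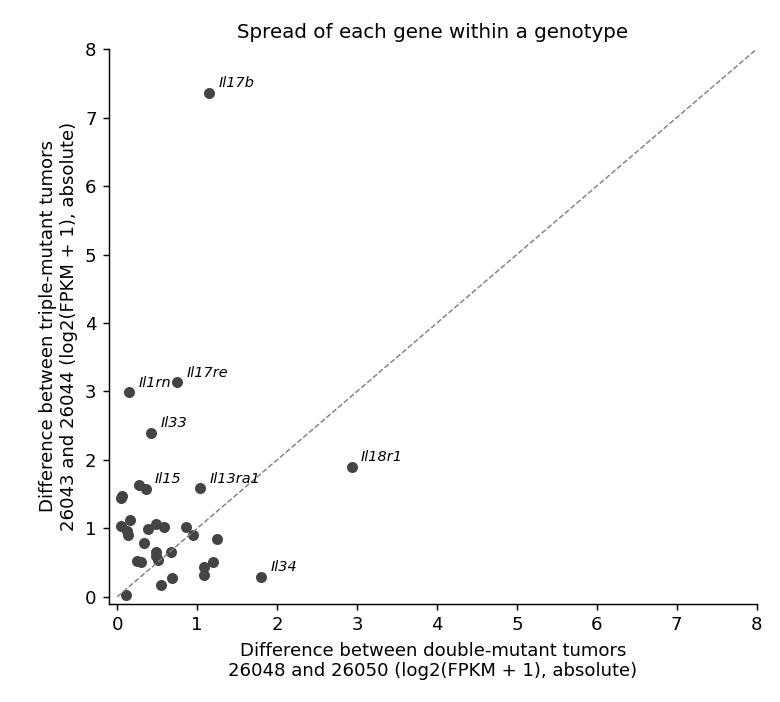
Absolute difference between the tumors of a pair, triple-mutant (vertical axis) against double-mutant (horizontal axis), in log2(FPKM + 1) units for each of the 34 genes, with the line of equality dashed. Of the 34 points, 23 lie above the line, Il17b, Il17re, Il1rn and Il33 farthest, while Il18r1 and Il34 were spread more within the double-mutant pair.

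Markers of other cells also differed between the tumors, and the order of the tumors depended on the cell type. The summed level of 10 macrophage markers was 697 FPKM in 26043, 322 FPKM in 26044, 833 FPKM in 26048 and 629 FPKM in 26050, so it was also lowest in 26044. Of the 10, 6 (Cd68, Emr1, Itgam, Mrc1, C1qb and Mpeg1) were higher in both double-mutant tumors, 3 of the list at an unadjusted p under 0.05, and 4 overlapped. The sum of 5 luminal epithelial markers was 2747, 403, 2158 and 1907 FPKM. Krt8, Krt18, Elf5 and Epcam were higher in both double-mutant tumors, while Krt19, at 1154 and 194 FPKM against 139 and 56.7 FPKM, went the other way and made the sum of 26043 the highest. The sum of 5 endothelial markers was 25.4 FPKM in 26043, 78.1 FPKM in 26044, 43.8 FPKM in 26048 and 24.7 FPKM in 26050, so it was highest in 26044. The 4 basal epithelial markers Krt5, Krt14, Krt17 and Trp63 summed to 1671 and 359 FPKM in the triple-mutant and 7.71 and 14.5 FPKM in the double-mutant tumors, and all 4 were apart in that direction. The 7 fibroblast markers summed to 205 and 123 FPKM against 899 and 433 FPKM, carried by Col1a1, Col1a2 and Col3a1. These and Lum were higher in both double-mutant tumors, Pdgfra, at 2.90 and 19.1 FPKM against 1.63 and 1.44 FPKM, was higher in both triple-mutant tumors, and Dcn and Pdgfrb overlapped. Il17rc, Il3ra and Il23a were named because their genotypes did not overlap, so separating along with such markers was fixed by that choice. Of all rows tested, 21.3% were higher in both triple-mutant tumors and 22.9% in both double-mutant tumors. The sum over 10 T cell markers, 24.3 to 54.5 FPKM, came largely from Thy1, which fibroblasts also express. Neutrophil markers summed to 37.8 and 9.96 FPKM against 10.8 and 52.4 FPKM. Of the 4 neutrophil markers that reached the filter, Csf3r and Cxcr2 were higher in both double-mutant tumors, and S100a8 and S100a9 overlapped. The B cell and NK cell lists summed to at most 1.53 and 2.26 FPKM and the dendritic cell list to 5.61 to 7.63 FPKM. The mast cell list, 22.3 to 121 FPKM, was nearly all Kit, with Ms4a2 at 0. Cpa3, Mcpt4, Tpsb2 and Cma1 did not reach the filter, but each was higher in both double-mutant tumors. They were at most 1.82 FPKM there and at most 0.289 FPKM in the triple-mutant tumors. The part of these cell types in the levels of the interleukin genes was not tested.

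The targeted genes were examined as a check of the labels. Rank (Tnfrsf11a) was at 2.07 and 0.962 FPKM in the triple-mutant and 10.6 and 11.9 FPKM in the double-mutant tumors, the direction of its label. Brca1 was at 3.26 and 3.28 FPKM against 3.84 and 5.69 FPKM, and Trp53 at 15.7 and 87.8 FPKM against 150 and 103 FPKM, both targeted in all 4 tumors.

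Genes without an interleukin symbol that serve the same receptors were read from a list of 62, of which 59 were found and 53 reached the filter. None passed the test (0 of 53, limma), 6 were higher and 1 lower in the triple-mutant tumors at an unadjusted p under 0.05 (13.2% together, against 9.82% of all rows), and the median difference was -0.01. Genotypes were apart by at least 1 log2 unit for 6 genes higher in the triple-mutant (11.3% of the 53, against 7.3% of all rows) and 1 higher in the double-mutant tumors (1.89%, against 4.65%).

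Cntfr, the receptor for ciliary neurotrophic factor, which signals through Il6st, was at 85.05 and 86.4 FPKM in the triple-mutant and 3.46 and 7.35 FPKM in the double-mutant tumors (3.83, SE 0.40, limma adjusted p = 0.143). Lifr, the gp130 partner that binds leukemia inhibitory factor, was at 6.41 and 25.8 FPKM against 3.53 and 4.89 FPKM (1.45, SE 0.69). In the other direction, Socs2, a feedback inhibitor of Jak and Stat signaling induced by cytokines and by hormones, was at 14.2 and 7.95 FPKM against 114 and 99.1 FPKM (-3.20, SE 0.37, limma adjusted p = 0.167). Cntfr and Socs2 differed by more than any interleukin gene whose genotypes did not overlap.

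Traf6, the ubiquitin ligase used by the IL-1 and IL-17 receptors, was at 7.82 and 3.04 FPKM against 9.77 and 9.35 FPKM (-0.82, SE 0.48). Of the genes that reached the filter, 0 of 10 kinases and Stats and 0 of 7 other cytokines stood at an unadjusted p under 0.05. So did 1 of 13 adaptors of the IL-1 and IL-17 receptors (Traf3ip2) and 1 of 5 inflammasome genes (Gsdmd). Among feedback inhibitors it was 3 of 9 (Socs1, Socs2 and Tnfaip3), and among shared and partner receptor chains 2 of 9 (Cntfr and Crlf2). Of these 7 genes, Socs2 alone was lower in the triple-mutant tumors. These lists are short, and whether their shares differ from the 9.82% of all rows was not tested. Csf1r, the receptor of IL-34, was at 16.5 and 12.4 FPKM against 27.1 and 15.9 FPKM, overlapping as Il34 did.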

How the data were processed

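Tumor RNA was polyA-selected, made into strand-marked (dUTP) libraries and sequenced as short single-end reads, which the authors aligned to mm10 with TopHat2 2.0.10 and Bowtie 0.12.9 per the labels. The deposited values are FPKM per gene from Cufflinks 2.1.1, with the bounds of its confidence interval in the same unit. The annotation is not given in the sources used here. Read counts (HTSeq) and their DESeq2 1.6.2 test were not analysed here, so the study's count test was replaced by a test on FPKM.

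The 4 tables were joined on symbol and position with pandas 2.3.3. Rows that reached 1 FPKM in 2 or more tumors entered limma 3.58.1 (lmFit, eBayes with trend, R 4.3.3) on log2(FPKM + 1), with double-mutant tumors as the reference, and p-values were adjusted by Benjamini-Hochberg over all 12752 rows at a threshold of 0.05. Groups came from the labelled genotype. The SE, intervals and p-values rest on the spread between these tumors, after limma moved the variance of each gene toward the trend over all rows fitted. They are therefore not set by the tumors' spread in that gene alone. The script was tested on simulated data. Depth is unknown, because ratios of low FPKM between tumors showed no plain steps of whole reads (the fullest bin held 4.49% to 12.0% of rows).

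The members, families, pathway list and marker lists were chosen with earlier results of these data known. Values in every tumor are given for genes whose genotypes are apart by at least 1 log2 unit, for the highest gene by mean of each family and role, and for the 5 largest differences with overlap, while other members are given by values or ranges. Of the pathway list the 3 largest differences in each direction without overlap and the partner chains of the separated genes are named, and neighbouring genes were added after their values were seen. Alternatives were TPM, a 5 FPKM filter or none, a 0.1 pseudocount, quantile normalization, no trend, the interval midpoint, status OK only and each tumor left out. Promoters are RefSeq windows on GRCm38.p6.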

Additional observations from a re-analysis of the deposited data

How the results depend on the processing

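No interleukin gene was called under any alternative. Over all genes, the count of called genes was 0 as reported, 6 after quantile normalization, 5 without the variance trend and 1 with the interval midpoint, and 0 in each fit that left out a tumor. Without a filter the lowest adjusted p of an interleukin gene was 0.0710, for Il19, which did not exceed 0.115 FPKM. The count of genes apart by at least 1 log2 unit and higher in double-mutant tumors was 1 as reported and 2 with a pseudocount of 0.1, where Il15ra joined Il23a. The count higher in triple-mutant tumors was 3 as reported. Il33 left that set under TPM, where its genotypes overlapped, and with the 5 FPKM filter, which it did not reach. Il3ra left it with the interval midpoint (0.75). Both counts moved when a tumor was left out. They are not compared there, because genotypes overlap less readily when 1 has a lone tumor and no share of all rows is given for those fits.

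Of 175 alternative values of the differences named by rule, 163 kept their direction, 12 reversed and 0 crossed the threshold. Il15, at 0.01, became -0.12 with a pseudocount of 0.1, -0.015 with TPM and -0.038 with quantile normalization, and Il13ra1, at -0.10, became 0.064 with the interval midpoint. Leaving out a tumor gave ranges of -0.78 to 0.80 for Il15, -0.90 to 0.69 for Il13ra1, -0.020 to 1.62 for Il18, -0.26 to 1.21 for Il18bp, -2.31 to 0.68 for Il1rn and -0.49 to 1.31 for Il34. A lone tumor in such a fit is assumed to vary like the other genotype. The causes were not tested. No paired analysis was possible because the genotypes share no replicate numbers and the labels do not say which tumors belong together. The paper describes the triple-mutant females as littermates of the double-mutant ones, so any pairing by litter was left out of the fit.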
